A study of Mus musculus with 4 samples.

Results

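Metallothioneins and the genes that move zinc across membranes were followed in intestinal crypts with and without CREPT, the RNA polymerase II-binding protein encoded by Rprd1b. The set held 10 genes by name, of 53845 rows in the count table. They were the 4 mouse metallothioneins Mt1, Mt2, Mt3 and Mt4, the metal-sensing transcription factor Mtf1, the zinc exporter family members Slc30a1 and Slc30a10, and the zinc importer family members Slc39a4, Slc39a5 and Slc39a14. The genes were listed for their function, but with the comparison of WT and Vil-CREPTKO crypts already known, and Mt1 was selected on its large increase in it. The values of the 10 genes in that comparison are therefore given as a description without a test. Of the 10 genes, 8 had enough counts to enter the fit across 17504 genes, and Mt2 and Mt4 did not.

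RNA-seq libraries were made from crypts of C57BL/6 mice, 2 from WT and 2 from Vil-CREPTKO animals. Vil-CREPTKO mice carried floxed Rprd1b alleles and a Cre recombinase under the villin promoter, which is active in the intestinal epithelium and not in the stromal or immune cells of the gut wall. No injury or treatment was given, and the study as a whole used mice of both sexes at 6 to 8 weeks. The methods call the libraries biological replicates, and the WT libraries came from animals of different sex, but the labels do not name the animals behind each library.

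Metallothioneins are small cysteine-rich proteins that bind zinc and copper in the cytosol. When free zinc rises, MTF1 binds metal response elements in DNA and switches on metallothionein genes and the exporter gene Slc30a1. Zinc transporters of the SLC39 (ZIP) family carry the metal into the cytosol, and those of the SLC30 (ZnT) family carry it out of the cell or into organelles. In the small intestine, the epithelium takes up dietary zinc, and Paneth cells at the crypt base keep zinc in their secretory granules.

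The DNA just upstream of Mt1 and Mt2 is shown because Mt1 carries the main change and Mt2 is its closest partner, the pair that metals usually switch on together. The windows were read from RefSeq promoter entries (mouse build GRCm38.p6, plus strand, 5′ to 3′). The Mt1 window, chr8:94178839-94179081, ends just before the earliest annotated Mt1 start. The Mt2 window, chr8:94172368-94172617, ends just before the RefSeq start of Mt2. Capitals mark matches to the core of the metal response element, searched as TGCACNC or TGCGCNC on both strands.
Mt1: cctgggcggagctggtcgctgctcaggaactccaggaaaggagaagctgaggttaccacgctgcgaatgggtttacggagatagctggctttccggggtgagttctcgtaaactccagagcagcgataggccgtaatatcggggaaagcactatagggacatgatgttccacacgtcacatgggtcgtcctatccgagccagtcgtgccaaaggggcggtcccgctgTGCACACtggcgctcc
Mt2: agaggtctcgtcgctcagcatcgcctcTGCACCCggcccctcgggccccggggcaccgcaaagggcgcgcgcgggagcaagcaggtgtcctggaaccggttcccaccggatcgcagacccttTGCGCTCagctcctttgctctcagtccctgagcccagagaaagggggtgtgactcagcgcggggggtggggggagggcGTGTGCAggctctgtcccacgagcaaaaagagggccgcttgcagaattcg

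The Mt1 window of 243 bases held 1 match and the Mt2 window of 250 bases held 3, of which 1 lies on the minus strand. Mt1 has several annotated starts, and the 159 bases between the earliest and the latest held 4 further matches. Over all 32851 RefSeq windows of 250 upstream bases, 21.4% held at least 1 match, 5.17% at least 2 and 0.304% at least 4. These windows differ in length and place from the stretch between the Mt1 starts. The 4 matches in that stretch therefore have no like share beside them. Of the other members with an entry, Slc30a10 had 3 matches, a number reached by 1.26% of windows, while Slc30a1 and Mt4 had 1 each, 1 of the 2 Slc39a5 windows had 1, and Mt3 and Mtf1 had none. The core of the antioxidant response element, searched as TGACNNNGC on both strands, was found at least once in 10.2% of all windows. Among the members it was found in the windows of Mt2, Slc30a1 and 1 of the 2 Slc39a5 entries. In the bases between the Mt1 starts, only matches to the metal response element were counted. Slc39a4 and Slc39a14 had no entry. A match describes letters in the window and does not show a bound site.

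The deleted gene followed the labels. Rprd1b was at 60.5 and 61.6 CPM (read counts scaled to the TMM-adjusted size of each library) in WT and at 26.3 and 29.0 CPM in Vil-CREPTKO. Total counts lay between 47241049 and 49369315 per library. The epithelial marker list summed to 7005 to 8396 CPM in the 4 libraries, the proximal small intestine list to 365 to 433 CPM, and the smooth muscle list to at most 0.244 CPM. WT replicate 2 was the library of a female animal (Xist at 863 CPM and 0 counts over 4 Y-linked genes) and the other 3 libraries were male. Tuft cell marker sums did not overlap between groups, at 151 and 192 CPM in WT and 91.2 and 89.9 CPM in Vil-CREPTKO. Trpm5 and Avil, 2 of the 4 tuft cell genes, were called lower. The sums of the goblet cell and lymphocyte lists (lower) and of the enteroendocrine list (higher) did not overlap either. Each of those lists had 0 genes called, with median log2 fold changes of -0.09, -0.42 and 0.08 in that order. Of all single genes tested, 21% did not overlap on the higher side and 24.2% on the lower side. The pancreas acinar list was also higher, at 20.5 and 15.3 CPM in WT and 44.7 and 27.3 CPM in Vil-CREPTKO with 0 of its 6 genes called. The hepatocyte list summed to 1.77 to 4.19 CPM in all libraries. The part of these differences in the results given here was not tested.

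Mt1 carried almost all metallothionein counts and was far higher in both Vil-CREPTKO libraries. Mt1 (ENSMUSG00000031765, chr8:94179082-94180327, plus strand) had 10788 and 5280 counts in WT replicates 1 and 2, and 74706 and 61758 counts in Vil-CREPTKO replicates 1 and 2. These were 211 and 107 CPM in WT and 1719 and 1258 CPM in Vil-CREPTKO, so the groups did not overlap and the lower Vil-CREPTKO library lay well above the higher WT library. The means were 159 ± 73.6 CPM in WT and 1488 ± 326 CPM in Vil-CREPTKO (SD, n = 2 each). The fitted fold was 9.34, a log2 fold change of 3.22 with a standard error of 0.34. In bulk RNA, more cells that express a gene and more RNA per cell cannot be told apart.

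The share of all counts that fell on Mt1 was 0.0226% and 0.0107% in WT, against 0.158% and 0.128% in Vil-CREPTKO. Per kilobase of transcript, Mt1 ranked 209 and 413 among all genes in WT, but 20 and 21 in Vil-CREPTKO. Mt1 thus stood among the most abundant messages of both Vil-CREPTKO libraries. Within both groups the replicate 1 library was the higher one, and the WT libraries differed from each other by a larger ratio than the Vil-CREPTKO libraries did. Without WT replicate 2, the female library, the log2 fold change was 2.82 among the remaining male libraries, and without WT replicate 1 it was 3.79.

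**Figure D1:**
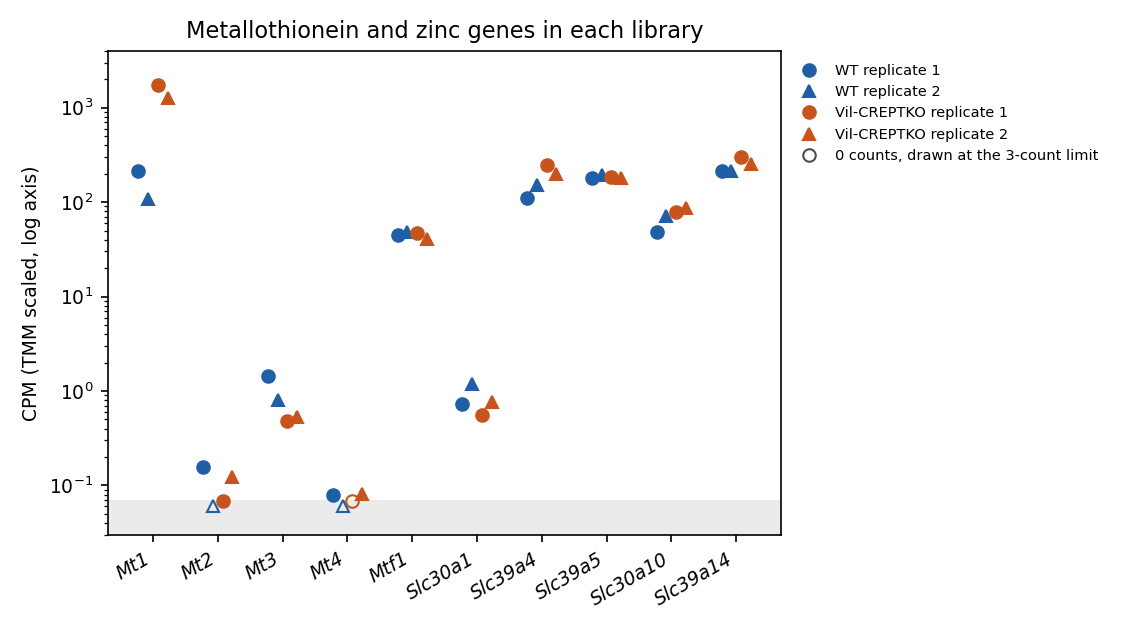
Expression of the 10 listed genes in each library, in CPM on a log axis. Circles are replicate 1 and triangles replicate 2 of WT (blue) and Vil-CREPTKO (orange), open symbols mark 0 counts drawn at the limit of 3 counts, and the grey band covers values up to the highest such limit, 0.069 CPM. Mt1 stands at 107 and 211 CPM in WT and 1258 and 1719 CPM in Vil-CREPTKO, while Mt2 and Mt4 lie at or under 0.157 CPM in every library.

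The other metallothioneins were close to absent in the table. Mt2 (ENSMUSG00000031762, chr8:94172664-94173568, plus strand), whose start lies at -6.42 kb from that of Mt1, had 8 and 0 counts in WT against 3 and 6 in Vil-CREPTKO. Mt4 (ENSMUSG00000031757, chr8:94137197-94139031, plus strand), known from stratified epithelia such as skin and tongue, had 4 and 0 counts in WT against 0 and 4 in Vil-CREPTKO. Both genes had at most 8 counts in a library and 0 counts in at least 1 library, where up to 3 counts are allowed for. Neither could be compared between the groups on these counts, and the reason for the low counts was not tested.

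Mt3 (ENSMUSG00000031760, chr8:94152607-94154146, plus strand), best known from the brain, had 73 and 40 counts in WT against 21 and 26 in Vil-CREPTKO. The levels were 1.43 and 0.813 CPM in WT and 0.483 and 0.529 CPM in Vil-CREPTKO, low in every library and without overlap between the groups. The log2 fold change was -1.14 with a standard error of 0.49, and it was -0.68 without WT replicate 1 and -1.49 without WT replicate 2. Mt1 made up 99.2% of metallothionein counts in both WT libraries and 99.9% or more in both Vil-CREPTKO libraries. These shares take the Mt2 counts as given, although most exonic bases of Mt2 are shared with another annotated gene.

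The counts of Mt2 need its gene model beside them. Of its 588 exonic bases, 432 (73.5%) are also exonic bases of Gm45774, an annotated gene on the opposite strand, which leaves 156 bases of its own. Gm45774 itself had 7 and 1 counts in WT against 0 in both Vil-CREPTKO libraries, so neither gene of the pair held more than 8 counts in a library. How reads over shared bases were assigned is not given in the sources used here. Mt1, Mt3 and Mt4 shared no exonic base with another gene.

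Among protein-coding genes, 41.5% of the 15447 without shared exonic bases had at most 20 counts summed over the 4 libraries. The share was 18.6% for those with up to 50% of bases shared and 38.6% for the 352 genes between 50% and 90%, the range that holds Mt2. It was 85.9% for the 92 genes between 90% and 100% and 98.7% for the 157 genes with every exonic base shared. Genes with nearly all bases shared were thus mostly empty in this table. The share in the range of Mt2 lay between that of genes with up to 50% shared and that of genes without sharing. The median summed counts were 64 in the range of Mt2, 2416.5 with up to 50% shared and 141 without sharing. The part of exon sharing in the low Mt2 counts was not tested gene by gene.

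**Figure D2:**
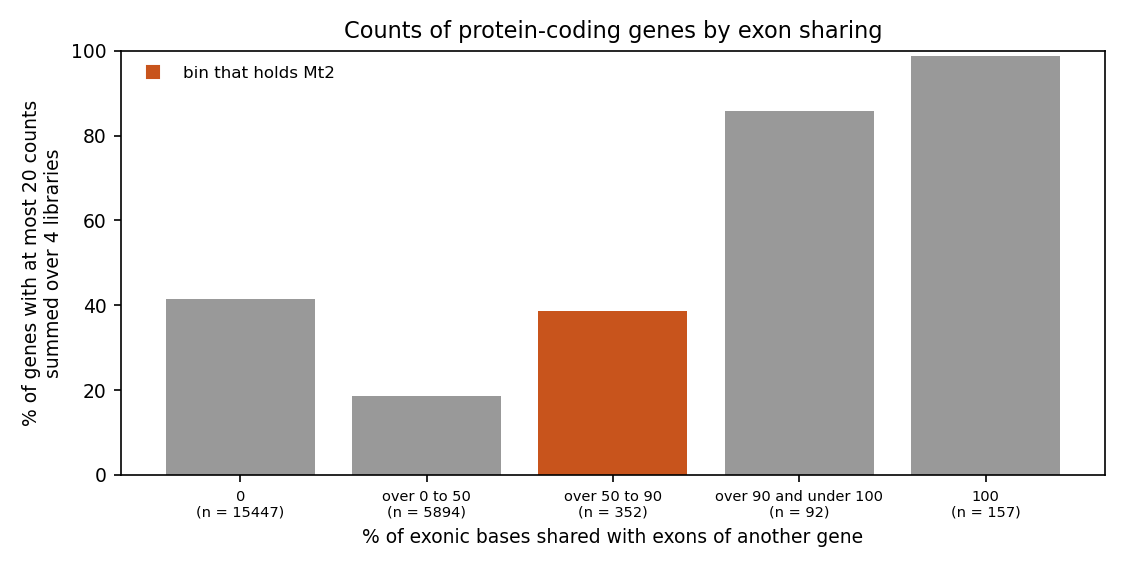
Percent of protein-coding genes with at most 20 counts summed over the 4 libraries, by the percent of their exonic bases shared with exons of another annotated gene (number of genes under each bar). The bars stand at 41.5%, 18.6%, 38.6%, 85.9% and 98.7%, and the orange bar is the bin of Mt2.

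Sequence likeness between the metallothioneins was also measured. The principal transcripts of Mt1 and Mt2 were 76.8% identical over their alignment, but their longest shared run was 20 bases, and that of Mt1 and Mt3 was 27 bases. None of the 6 pairs shared a run of 31 bases. Of the 519 runs of 31 bases in the Mt1 transcript, 0 occurred in the transcripts of another gene, and the same held for Mt3 and Mt4. Of the 481 such runs in the Mt2 transcript, 3 also occurred in transcripts of Pip5k1a. All runs were compared in the direction of each transcript only. The bases that Mt2 shares with Gm45774 on the opposite strand were therefore not counted here.

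No tested gene around the metallothionein cluster outside the family passed the test. Within 200 kb of Mt1 lay 15 genes that are not metallothioneins, of which 9 were tested. In edgeR's quasi-likelihood test 0 of the 9 were called and 0 had an unadjusted p under 0.05, and DESeq2 gave 0 with an adjusted p under 0.05. Their log2 fold changes ran from -0.39 for the pseudogene Rpl10-ps5 to 0.75 for Gm15890. The nearest tested protein-coding gene downstream, Nup93, which encodes a nuclear pore subunit, was at 0.08 with a standard error of 0.13. Upstream, Bbs2, Nudt21 and Ogfod1 were at 0.07, 0.03 and 0.08.

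**Figure D3:**
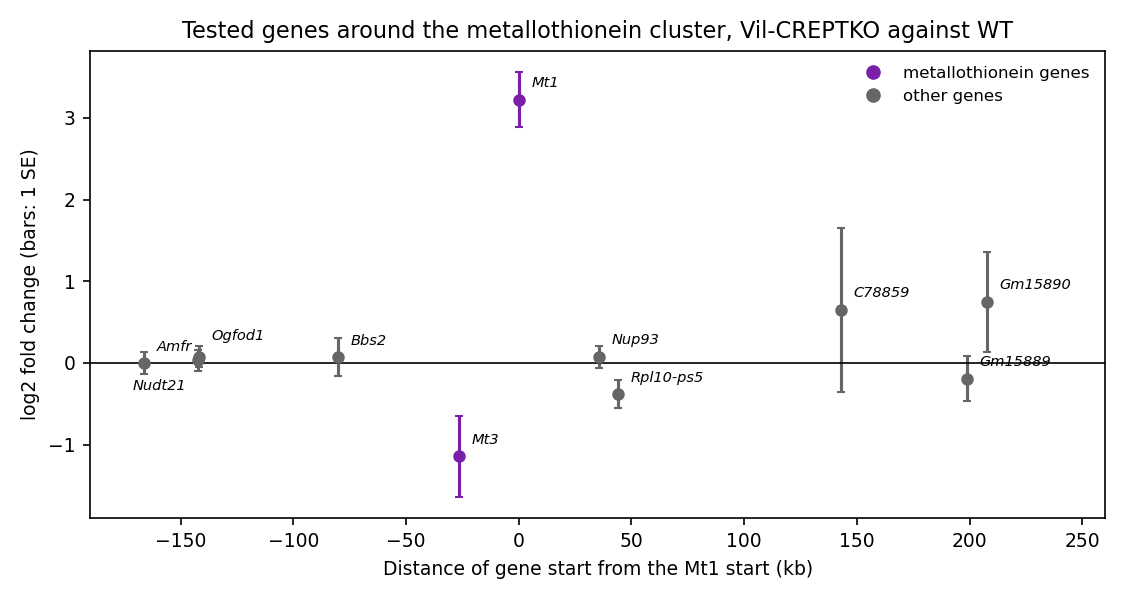
Log2 fold change of Vil-CREPTKO against WT (points, with bars of 1 standard error) for the tested genes around the metallothionein cluster, by the distance of their start from the Mt1 start in kb. Mt1 lies at 3.22 and Mt3 at -1.14 (purple), and the 9 other tested genes (grey) lie between -0.39 and 0.75.

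The zinc-sensing factor and the classical zinc-responsive exporter overlapped between the groups. Mtf1 (ENSMUSG00000028890, chr4:124802104-124849800, plus strand) was at 45.2 and 48.6 CPM in WT and 46.9 and 40.3 CPM in Vil-CREPTKO. The log2 fold change was -0.11 with a standard error of 0.13. Slc30a1 (ENSMUSG00000037434, chr1:191906767-191913247, plus strand), which encodes the plasma membrane exporter ZnT1, had only 37 and 59 counts in WT against 24 and 38 in Vil-CREPTKO.

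These were 0.725 and 1.20 CPM in WT and 0.552 and 0.774 CPM in Vil-CREPTKO, again with overlap. The log2 fold change of Slc30a1 was -0.53 with a standard error of 0.49, wide enough that a small change in either direction could not be resolved at this depth. Its exons share 8.92% of their bases with another annotated gene.

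Slc39a4 was the member with the next largest increase. Slc39a4 (ENSMUSG00000063354, chr15:76612383-76617384, minus strand) encodes ZIP4, the apical importer for dietary zinc, whose loss causes acrodermatitis enteropathica. It was at 111 and 152 CPM in WT and 245 and 199 CPM in Vil-CREPTKO. Both Vil-CREPTKO libraries were above both WT libraries, with means of 131 ± 28.8 and 222 ± 32.5 CPM (SD, n = 2 each). The log2 fold change was 0.76 with a standard error of 0.19, and it was 1.001 without WT replicate 2 and 0.55 at the lowest of the alternatives. The enterocyte marker list overlapped between the groups, at 12156 and 16077 CPM in WT and 22013 and 13044 CPM in Vil-CREPTKO, and its part in the Slc39a4 difference was not tested.

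Slc39a5 (ENSMUSG00000039878, chr10:128395931-128401229, minus strand), which encodes the basolateral importer ZIP5, overlapped between the groups. It was at 179 and 194 CPM in WT and 183 and 178 CPM in Vil-CREPTKO, with a log2 fold change of -0.05 (standard error 0.13), or 0.06 after correction for GC content and length. The ratio of Slc39a4 to Slc39a5 in CPM was 0.618 and 0.782 in WT against 1.34 and 1.12 in Vil-CREPTKO. Per kilobase of transcript, Slc39a4 lay below Slc39a5 in all 4 libraries. The levels per kilobase were 40.3 and 55.1 against 88.6 and 95.8 in the WT libraries, while the Vil-CREPTKO libraries had 89.0 and 72.2 against 90.4 and 87.8.

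The remaining members are transporters that also carry other metals. Slc30a10 (ENSMUSG00000026614, chr1:185454848-185468762, plus strand) encodes ZnT10, known chiefly as a manganese exporter, and was at 47.7 and 71.6 CPM in WT and 79.1 and 87.4 CPM in Vil-CREPTKO. The log2 fold change was 0.48 with a standard error of 0.18, and the gap between the groups was small beside that between the WT libraries. With WT replicate 1 left out it was 0.22, and with WT replicate 2 left out 0.81.

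Slc39a14 (ENSMUSG00000022094, chr14:70303469-70351425, minus strand) encodes ZIP14, which carries zinc, iron and manganese. It was at 214 and 215 CPM in WT and 303 and 252 CPM in Vil-CREPTKO. The log2 fold change was 0.37 with a standard error of 0.15, and both Vil-CREPTKO libraries lay above the closely matched WT libraries. Leaving out Vil-CREPTKO replicate 1 gave 0.23, and leaving out Vil-CREPTKO replicate 2 gave 0.50.

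**Figure D4:**
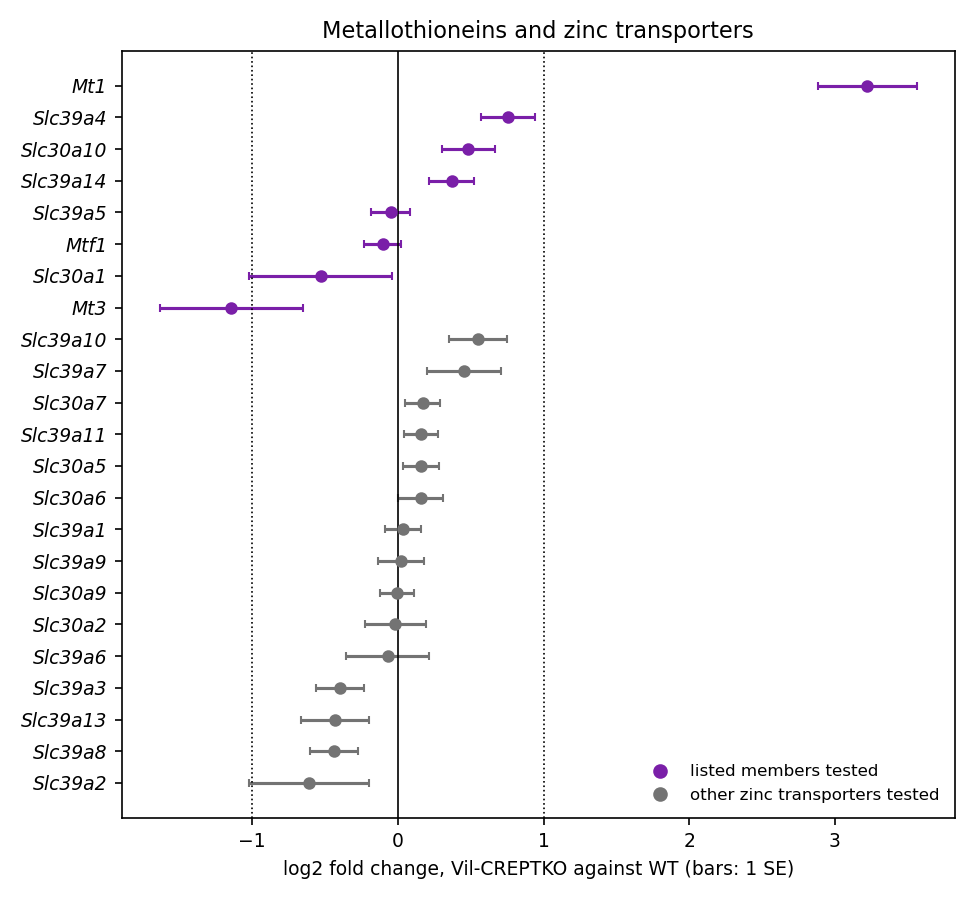
Log2 fold change of Vil-CREPTKO against WT for the 8 members tested (purple) and the 15 other zinc transporters tested (grey), with bars of 1 standard error and dotted lines at 1 and -1. Mt1 at 3.22 lies apart from all others, and the grey points lie between -0.61 and 0.55.

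Over the 8 members tested, Mt1 was the 1 called higher (adjusted p under 0.05 and log2 fold change over 1), where 0.297% of all genes tested were called higher. None was called lower in edgeR or DESeq2, where 1.34% of all genes were. Without the fold threshold 1 member was higher (Mt1) and 0 lower in edgeR, against a background of 0.423% of genes higher and 2.29% lower. Among the settings that kept every library, Slc39a4 joined Mt1 in DESeq2 and under library-size scaling. With no filter on low counts Slc39a4 and Slc30a10 did. The groups did not overlap for 4 members on the higher side (Mt1, Slc39a4, Slc30a10 and Slc39a14) and for 1 on the lower side (Mt3), against 21% and 24.2% of all genes tested. Since the genes were chosen with this comparison known, nothing is read from these counts. The members' median log2 fold change was 0.16, beside -0.0060 over all genes tested.

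The order of the levels can be read only per length. In WT, Mt1 led with 290 ± 134 CPM per kb, followed by Slc39a5 with 92.2 ± 5.10, Slc39a4 with 47.7 ± 10.5 and Slc39a14 with 43.6 ± 0.224 (SD, n = 2). Slc39a4 and Slc39a14 differed by less than the SD of Slc39a4 but by more than that of Slc39a14. Lower down came Slc30a10 with 10.2 ± 2.90, Mtf1 with 6.15 ± 0.316 and Mt3 with 2.09 ± 0.814 CPM per kb. Slc30a1, Mt2 and Mt4 lay under 0.2 CPM per kb, and no order is read among them.

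In Vil-CREPTKO, Mt1 reached 2711 ± 594 CPM per kb. Slc39a5 (89.1 ± 1.89) and Slc39a4 (80.6 ± 11.8) then differed by less than the SD of Slc39a4 but by more than that of Slc39a5. Slc39a14 followed with 56.3 ± 7.39 CPM per kb. The lengths are those of the principal transcript, and with the longest transcript Mt1 came to 147 CPM per kb in WT and 1372 in Vil-CREPTKO. Mt1 kept the first place with either length.

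The other zinc transporters, listed by family and not by how they moved, gave few differences. Of 8 other ZnT genes, 5 were tested, and their median log2 fold change was 0.16. Slc30a7, which loads the secretory pathway with zinc, was at 0.17 (adjusted p = 0.605, edgeR), and Slc30a5 at 0.16 (adjusted p = 0.651). Slc30a2, which fills the zinc granules of Paneth cells, was at 49.5 and 72.5 CPM in WT and 70.2 and 50.4 CPM in Vil-CREPTKO, with overlapping ranges. The Paneth cell marker list also overlapped between the groups, at 12381 and 17219 CPM in WT and 15602 and 17234 CPM in Vil-CREPTKO.

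Of 11 other ZIP genes, 10 were tested, with a median log2 fold change of -0.03. The largest value among the better expressed ones was that of the plasma membrane importer Slc39a10, at 0.55 (adjusted p = 0.243). Slc39a7, which releases zinc from the endoplasmic reticulum, was at 0.45 (adjusted p = 0.49) on 145 and 150 counts in WT against 185 and 187 in Vil-CREPTKO, with 80.7% of its exonic bases shared with Gm20427. Of these 15 zinc transporters, 0 were called in edgeR, 0 had an adjusted p under 0.05 in DESeq2, and 3 had an unadjusted p under 0.05 (1 higher and 2 lower), where 14.3% of all genes tested did.

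Copper and iron genes were examined because metallothioneins bind copper and ZIP14 also carries iron. All 9 copper genes and all 10 iron genes were tested, and their median log2 fold changes were 0.19 and 0.23. Atox1, the copper chaperone of the secretory pathway, was at 73.0 and 69.1 CPM in WT and 106 and 86.8 CPM in Vil-CREPTKO, with a log2 fold change of 0.44 (adjusted p = 0.151). Ncoa4, the receptor for ferritin breakdown, was at 96.6 and 113 CPM in WT and 146 and 151 CPM in Vil-CREPTKO, with a log2 fold change of 0.50 (adjusted p = 0.101). Neither passed the test in edgeR. Ncoa4 had an adjusted p under 0.05 in DESeq2 and with no filter on low counts, and Atox1 without Vil-CREPTKO replicate 2.

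Metallothionein genes are also known to respond to glucocorticoids, to inflammation through STAT3, to oxidative stress and to heat shock, and a list was read for each. The 10 glucocorticoid-responsive genes had a median of 0.08 on the log2 scale, and 0 of them had an unadjusted p under 0.05. Fkbp5, a receptor co-chaperone named after its values were seen, had 7072 and 2276 counts in WT against 5667 and 3283 in Vil-CREPTKO. Zbtb16, a zinc finger factor, had 445 and 20 counts in WT against 460 and 66 in Vil-CREPTKO. Of the rest of this list, Per1 and Dusp1 were higher in CPM in the replicate 1 library of each group. Tsc22d3, Sgk1, Klf9, Errfi1, Ddit4 and Cebpd were not. Fkbp5 and Zbtb16, like Mt1, were higher in the replicate 1 library of each group, but unlike Mt1 they overlapped between the groups. Without WT replicate 1 both had an adjusted p under 0.05.

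Of the 9 acute phase and STAT3 genes, 4 were tested. Socs3, a feedback inhibitor of STAT3 signalling, was at 26.6 and 25.4 CPM in WT and 38.0 and 31.02 CPM in Vil-CREPTKO, with a log2 fold change of 0.41 (adjusted p = 0.224). The list median was 0.27. All 10 genes of the NRF2 and oxidative stress list were tested, with a median of 0.03. Of these, 5 had a positive log2 fold change and 5 a negative one.

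Gclc, the catalytic subunit of glutathione synthesis, was at 72.8 and 58.9 CPM in WT and 108 and 96.6 CPM in Vil-CREPTKO. Its log2 fold change of 0.64 had an adjusted p of 0.0544 in edgeR, just outside the threshold. The adjusted p was under 0.05 in 6 of the 12 alternatives, among them DESeq2 (0.00530), the replicate block (0.0352) and a minimum of 10 counts (0.0471), and was 0.275 at most, without WT replicate 2. Hmox1, which encodes heme oxygenase and is named after its values were seen, had 28 and 24 counts in WT against 64 and 79 in Vil-CREPTKO, with a log2 fold change of 1.57 with an adjusted p of 0.105 in edgeR, and under 0.05 with no filter on low counts.

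The heat shock list was the one with a call, and its direction was lower. Hspa1a, an inducible HSP70 gene, had 385 and 449 counts in WT against 118 and 52 in Vil-CREPTKO, with a log2 fold change of -2.15 with a standard error of 0.40 (adjusted p = 0.0267, edgeR). Its near-identical copy Hspa1b was at 29.2 and 35.1 CPM in WT and 15.8 and 3.89 CPM in Vil-CREPTKO, with a log2 fold change of -1.71 (adjusted p = 0.132). Hspa1b had an adjusted p under 0.05 in 6 of the 12 alternatives, among them the replicate block (-1.99, adjusted p = 0.0382) and library-size scaling (adjusted p = 0.0140), while DESeq2 gave 0.436. The split of reads between the copies is uncertain. All 8 heat shock genes were tested and their median was -0.24.

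Of the 75 genes in these 8 lists, 66 were tested. In edgeR 0 were called higher and 1 lower, and 12 had an unadjusted p under 0.05, of which 6 were higher and 6 lower, beside 14.3% of all genes tested in either direction. DESeq2 gave 3 genes with an adjusted p under 0.05, namely Ncoa4, Gclc and Hspa1a. The largest increase among the 66 was the 1.57 of Hmox1, which did not pass the test, beside 3.22 for Mt1.

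**Figure D5:**
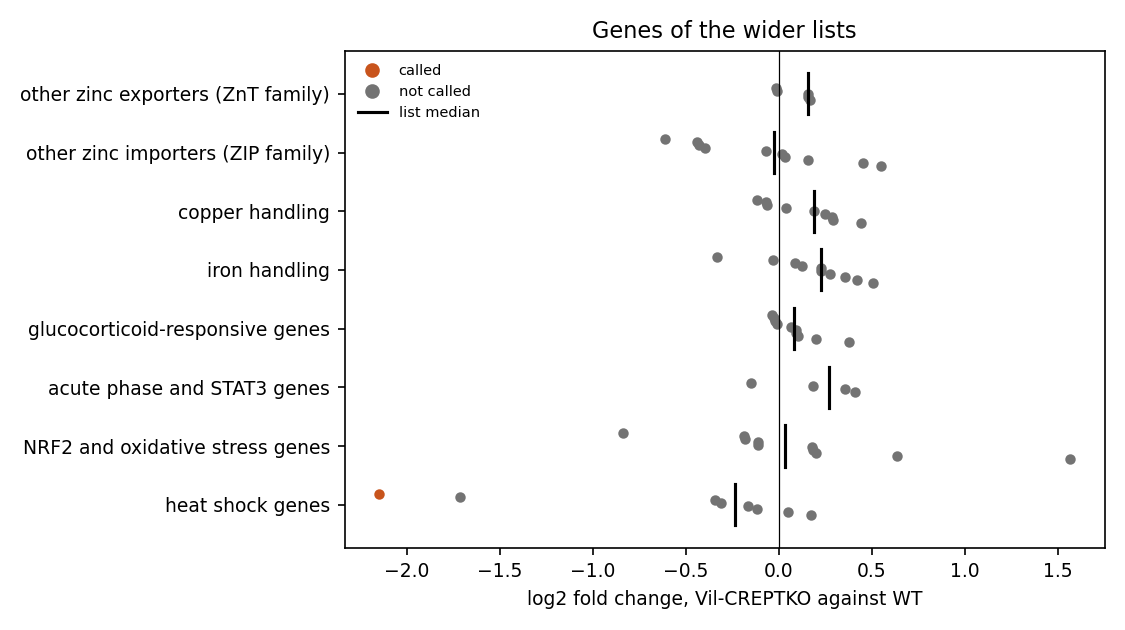
Log2 fold change of Vil-CREPTKO against WT for each tested gene of the 8 wider lists (points), with the list median as a black bar. The called gene, Hspa1a at -2.15, is orange, and the list medians lie between -0.24 and 0.27.

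To see which genes shared the Mt1 profile, log2 CPM over the 4 libraries was centred per gene and compared by Euclidean distance among 12171 genes with sufficient expression. The nearest was Col20a1, a collagen gene, at a distance of 0.838, with 2.41 and 1.63 CPM in WT and 13.9 and 9.45 CPM in Vil-CREPTKO. Defa2, an alpha-defensin of Paneth cells, was at 0.844, with 23.1 and 11.3 CPM in WT and 99.95 and 77.7 CPM in Vil-CREPTKO. Defa2 belongs to a multigene family of close copies, so its counts are uncertain. Retnlb, a goblet cell product with antimicrobial activity, followed at 0.952, then Dok3 at 1.02 and Gm37795 at 1.04. The likeness is a description over 4 libraries and carries no statement on shared control.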

How the data were processed

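Gene-level RNA-seq of crypts was taken from 4 libraries, grouped by sample title into 2 WT and 2 Vil-CREPTKO. The values were whole-number read counts per Ensembl gene, as the authors deposited them, 1 library to a column. The methods and the submitters' processing notes name CASAVA 1.8, Bowtie2, RSEM and GRCm38.p6. Versions of Bowtie2 and RSEM, the counting rule and the strand setting are not given in the sources used here, so sense and antisense reads over shared bases cannot be told apart. Of 53845 rows, 53360 (99.1%) matched GENCODE M21, which gave symbols, coordinates and transcript lengths.

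The counts were fitted with edgeR 4.0.16 (R 4.3.3): filterByExpr (17504 genes kept), TMM scaling, and a two-sided quasi-likelihood test with group as the only term, adjusted by Benjamini-Hochberg over all genes tested. A gene was called at an adjusted p under 0.05 and an absolute log2 fold change over 1. The standard error is the size of the log2 fold change divided by the square root of F. CPM of every row uses TMM-scaled library totals over the 17504 genes kept. Total counts ran from 47241049 to 49369315, 3 counts equalled 0.0588 to 0.069 CPM, and the common biological coefficient of variation was 0.188, so the spread between libraries set the precision. Libraries of a group differed far beyond sampling noise (chi-square per gene 49.8 in WT and 70.1 in Vil-CREPTKO).

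The members, lists and tests were chosen with earlier results of these data known. Named beside the members were, per list, genes with an adjusted p under 0.05 or otherwise the largest changes at an average log2 CPM of at least 1 (up to 2), genes within 200 kb of Mt1, the 5 genes nearest to Mt1 in profile, and Rprd1b. Other genes are named as chosen after their values were seen. Fkbp5, Hmox1, Slc30a2 and the glucocorticoid-responsive genes named without values are such genes. Alternatives were scaling by RLE, by upper quartile or by library size alone, omission of the filter, at least 10 counts in every library, a replicate block, a loess correction for GC content and length (span 0.5), each library left out in turn, DESeq2 1.42.0, and the longest transcript as the length.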

Additional observations from a re-analysis of the deposited data

How the results depend on the processing

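Mt1 was selected on its increase in these libraries, so its values here are a description: its log2 fold change ran from 2.82 (without WT replicate 2) to 3.79 (without WT replicate 1). Among the members, the count called higher was 1 to 2 with each library left out, since Slc39a4 passed at 1.001 without WT replicate 2. Over all genes, 52 were called higher, 163 with no filter on low counts, 87 in DESeq2 and 62 to 135 with each library left out. The 235 called lower became 379 under library-size scaling and 450 with no filter. Genes called in the wider lists numbered 1, but 2 under library-size scaling, 3 with no filter, and 1 to 4 with each library left out. With the replicate block, 67 genes were called higher, 269 lower and 2 in the wider lists (Hspa1a and Hspa1b), and Mt1 was at 3.29. Samples that share a replicate number did not deviate together over all genes (correlation 0.0277). The labels do not say whether the number marks a pair, and the WT libraries also differed in sex. Zbtb16, at 0.38 over all libraries and 3.86 without WT replicate 1, turned to -0.55 without WT replicate 2 and to -1.77 without Vil-CREPTKO replicate 1, and Sgk1, at 0.20 over all libraries and 0.63 without Vil-CREPTKO replicate 2, turned to -0.41 without Vil-CREPTKO replicate 1. Leaving out a library or changing the filter changes the number of samples or genes tested, and the cause of the other shifts was not tested. With 1 library left in a group, that library is assumed to vary like the other group. The 2 libraries per group, and the 0 to 8 counts of Mt2 and Mt4, set the main limits, and the only female library was 1 of the 2 WT libraries.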
